A study of Mus musculus with 12 samples.

Results

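The G1 cyclins, their kinases and the inhibitors of those kinases were followed in the mouse mammary gland. They are 10 genes: the D-type cyclins Ccnd1, Ccnd2 and Ccnd3, the E-type cyclins Ccne1 and Ccne2, the kinases Cdk4 and Cdk6, and the CIP/KIP inhibitors Cdkn1a, Cdkn1b and Cdkn1c. Every probe set (a group of short probes for 1 transcript) annotated to 1 of them alone was taken, which gave 27 of 45037 probe sets, and 10 of 18193 named genes. Probe sets entered the tests if 3 or more of the 12 arrays placed their signal over that array's median. By that filter 24 of the 27 were tested and 9 of the 10 genes, since the single probe set of Ccne2 was below the median on every array. For each gene the tested probe set with the highest mean stands for it here, and its other probe sets are given beside it.

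All mice were ovariectomized BALB/c females, 10 weeks old, either wild type or null for the progesterone receptor, a hormone-activated transcription factor. Each of the 12 arrays held mammary gland RNA pooled from 3 mice, with 3 arrays in each of 4 groups. Every group, null glands included, was first given 17β-estradiol (100 ng) subcutaneously, with 24 h before progesterone (2.5 ug) was added to a further 100 ng. The groups are wild type and null with progesterone for 8 h, and wild type and null with progesterone for 24 h. The labels do not say how the null allele was made, and no group without progesterone was analysed here. The comparison of genotypes asks which levels depend on the receptor, and the comparison of times also differs in the length of 17β-estradiol treatment.

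Cyclins of the D type bind CDK4 and CDK6, and these kinases start the phosphorylation of the retinoblastoma protein that holds E2F transcription factors in check. Cyclin E with CDK2 completes that step, after which the genes of DNA replication are transcribed. The CIP/KIP proteins p21 (Cdkn1a), p27 (Cdkn1b) and p57 (Cdkn1c) inhibit CDK2 complexes, and INK4 proteins inhibit CDK4 and CDK6. In the mammary gland, mice without cyclin D1 fail to form the lobules and alveoli of pregnancy, a phase of growth that progesterone drives.

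The upstream sequence of Cdk4 is shown because its probe sets lay apart between the genotypes at 24 h in the same direction as those of Ccnd1, and because it holds a cluster of 1 motif. The 250 bases before the start of Cdk4 (RefSeq, GRCm38.p6, chr10:127063285-127063534, plus strand) are given 5′ to 3′, with each CACGTG in capitals. CACGTG is the E-box bound by MYC and related factors, and it reads the same on both strands.
Cdk4: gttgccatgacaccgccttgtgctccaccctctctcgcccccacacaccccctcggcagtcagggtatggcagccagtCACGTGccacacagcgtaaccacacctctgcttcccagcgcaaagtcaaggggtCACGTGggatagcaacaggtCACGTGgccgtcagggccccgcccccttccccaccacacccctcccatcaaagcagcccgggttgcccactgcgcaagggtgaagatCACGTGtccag

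The Cdk4 stretch holds 4 copies, which begin 172, 118, 98 and 11 bases before the start. Of 32851 RefSeq promoter stretches of that length, 1978 (6.02%) hold CACGTG and 7 (0.0213%) hold at least 4 copies. Promoters of 6 members were matched (Ccnd3, Ccne1, Cdk4, Cdk6, Cdkn1a and Cdkn1b), and besides Cdk4 only that of Cdk6 holds the motif, in 1 copy. A match describes the letters and is not a measured binding site. No promoter of Ccnd1, Ccnd2, Ccne2 or Cdkn1c was matched.

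Signals are on the log2 scale, so a difference of 1 is 2-fold. The array medians lay between 5.84 and 5.91, and arrays of 1 group correlated with r from 0.965 to 0.993 over the tested probe sets. The targeted gene, Pgr, had 2 tested probe sets, and where they lie relative to the null allele is not known here. By 1455772_at every null array (6.24 to 6.93) lay above every wild type array (4.01 to 5.02), 3.92-fold at 8 h (adjusted p = 6.0e-05) and 4.28-fold at 24 h (9.0e-05). By 1439527_at wild type lay 2.08-fold above null at 8 h (0.012) and 1.28-fold at 24 h (0.45), so Pgr RNA was detected under both labels. For the tissue, 10 of 10 epithelial markers (Epcam, Cdh1, keratins and claudins among them) were tested. The gland also holds other tissue. White fat markers (6 of 7 tested) had group means between 12.86 and 13.01, whereas brown fat markers (6 of 6 tested), skeletal muscle markers (8 of 8) and lymphocyte markers (7 of 8) varied widely between pools. All 8 muscle markers lay higher in wild type at 8 h (median 2.18, log2) and at 24 h (median 1.68) with 0 called by limma (2 and 0 at an unadjusted p below 0.05), and null pool 2 at 8 h stood apart, with a mean of 6.55 against 10.97 in pool 1 and 10.35 in pool 3. Pool 1 had the highest and pool 2 the lowest muscle mean in each of the 4 groups. Wild type pool 2 at 24 h stood apart from the other pools of its group in epithelial markers, with a mean of 9.29 against 9.75 in pool 1 and 9.83 in pool 3. RNA was from whole glands, so fewer cells of a type and less RNA per cell cannot be told apart.

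Among the D-type cyclins, Ccnd1 was higher in wild type than in null glands after 24 h of progesterone, and Ccnd2 and Ccnd3 were not called. Ccnd1 (1417420_at) measured 10.13, 9.48 and 9.97 in the 3 wild type pools at 24 h and 8.75, 8.87 and 8.89 in the null pools. All wild type pools lay above all null pools, with pool 2 the lowest of the wild type. The means were 9.86 ± 0.34 (SD, n = 3) and 8.84 ± 0.08, a 2.04-fold difference (log2 1.03, SE 0.14, limma adjusted p = 0.0041). The other probe sets of Ccnd1 were also called, at 2.40-fold for 1417419_at (SE 0.20, adjusted p = 0.0097) and 1.87-fold for 1448698_at (SE 0.19, adjusted p = 0.046).

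These 3 probe sets were the only ones called among the 24 at 24 h, and Ccnd1 the only gene of 9, where 1.11% of all tested probe sets and 1.3% of all tested genes were called. The call of 1417420_at was kept in all 12 fits that left out 1 array (adjusted p 0.00024 to 0.025). It was lost when only the 6 arrays at 24 h were fitted (adjusted p = 0.074). That of 1448698_at was lost in 9 of the 12 fits (adjusted p up to 0.19), and that of 1417419_at in 1, without null pool 2 at 24 h (adjusted p = 0.052).

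Most epithelial markers lay the same way as Ccnd1 at 24 h. Of 10, 8 lay higher in wild type and 2 lower (log2 -0.19 for Krt8, adjusted p = 0.52, and -0.26 for Krt19, adjusted p = 0.56). The 4 called were higher in wild type (Cldn7 2.28-fold, Esrp1 2.09-fold, Cldn3 1.99-fold and Cdh1 1.81-fold), and the mean log2 level of all 10 was 9.29 to 9.83 in wild type pools and 8.71 to 8.97 in null pools. The summed linear level of the list was 8140 to 11630 in wild type and 7030 to 8454 in null pools. With the epithelial mean of the same array subtracted, the Ccnd1 difference at 24 h was 0.29 (log2) in place of 1.03. The subtracted values ran from 0.14 to 0.38 in wild type and from -0.23 to 0.18 in null pools, so the groups overlapped (exact two-sided permutation p = 0.20; the smallest p that 3 against 3 arrays allow is 0.10). The subtraction was chosen after the values were seen. At 24 h it also moved members whose groups had overlapped before it. Of these, Ccnd2 (log2 0.01) and Cdk6 (0.06) had lain higher in wild type before the subtraction and the rest lower. The subtracted epithelial mean was itself 0.74 (log2) higher in wild type. After the subtraction Ccnd2 (log2 -0.73), Ccnd3 (-0.84), Ccne1 (-0.85), Cdk6 (-0.68), Cdkn1a (-1.01), Cdkn1b (-0.77) and Cdkn1c (-0.86) lay lower in wild type. Their groups did not overlap after it (exact permutation p = 0.10 for each, the smallest possible).

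**Figure D1:**
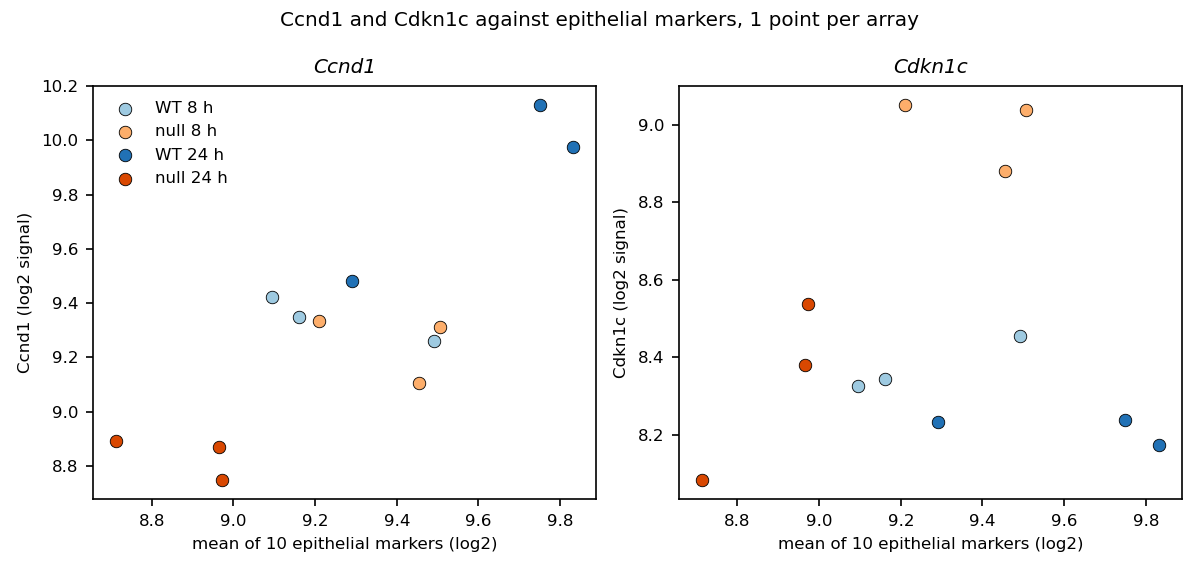
Log2 signal of Ccnd1 (left) and Cdkn1c (right) against the mean log2 level of 10 epithelial markers, 1 point per array, coloured by group. The 3 null arrays at 24 h lie lowest on both axes for Ccnd1 and wild type pools 1 and 3 at 24 h highest, whereas the 3 null arrays at 8 h stand above the rest for Cdkn1c at epithelial means from 9.21 to 9.51.

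At 8 h the genotypes overlapped in Ccnd1. It measured 9.42, 9.35 and 9.26 in wild type pools and 9.31, 9.11 and 9.33 in null pools, a difference of 0.09 (log2, 95% interval -0.21 to 0.40, adjusted p = 0.82). Probe set 1417419_at read otherwise, with 7.68, 7.50 and 7.55 in wild type and at most 7.18 in null pools. Its groups did not overlap, yet the 1.43-fold difference was not called (adjusted p = 0.23). Fitted on the 6 arrays at 8 h alone it was called (adjusted p = 0.024), and also with array weights (0.036). Array weights called 4017 of the 23709 tested probe sets at 8 h, in place of 729.

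Ccnd2, the D-type cyclin with the most probe sets here, was measured by 7, and none was called in either genotype comparison. Its representing probe set (1434745_at) measured 11.61, 11.44 and 11.34 in wild type and 11.48, 11.48 and 11.49 in null pools at 8 h, and 11.36, 11.41 and 11.50 in wild type and 11.23, 11.43 and 11.56 in null pools at 24 h. The genotypes overlapped at both times. The differences were -0.02 (95% interval -0.22 to 0.18) at 8 h and 0.01 (95% interval -0.18 to 0.21) at 24 h, intervals that leave out the 2.04-fold difference of Ccnd1. At 8 h 3 other Ccnd2 probe sets had lower values in every wild type pool than in any null pool, by 1.18-fold to 1.23-fold (adjusted p 0.084 to 0.15). Without wild type pool 2 at 24 h 2 of them were called (1416122_at, adjusted p = 0.016, and 1430127_a_at, 0.046). That array is not in the 8 h groups, so the 8 h differences were unchanged and only the spread and the adjustment moved. In 11 of the 12 fits that left out 1 array neither was called. Both were also called with array weights (0.0074 and 0.0091), a setting that called 4017 probe sets at 8 h in place of 729.

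Ccnd3 (1415907_at) measured 9.57, 9.54 and 9.33 in wild type and 9.54, 9.37 and 9.46 in null pools at 8 h, against 9.03, 9.39 and 9.11 and 9.13, 9.33 and 9.36 at 24 h. The genotypes overlapped at both times, and the difference was 0.02 (95% interval -0.22 to 0.26) at 8 h and -0.10 (95% interval -0.34 to 0.14) at 24 h. The remaining Ccnd3 probe sets were not called either, and 1438805_at had the largest SD of the 27 probe sets, 0.98 in null pools at 24 h.

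**Figure D2:**
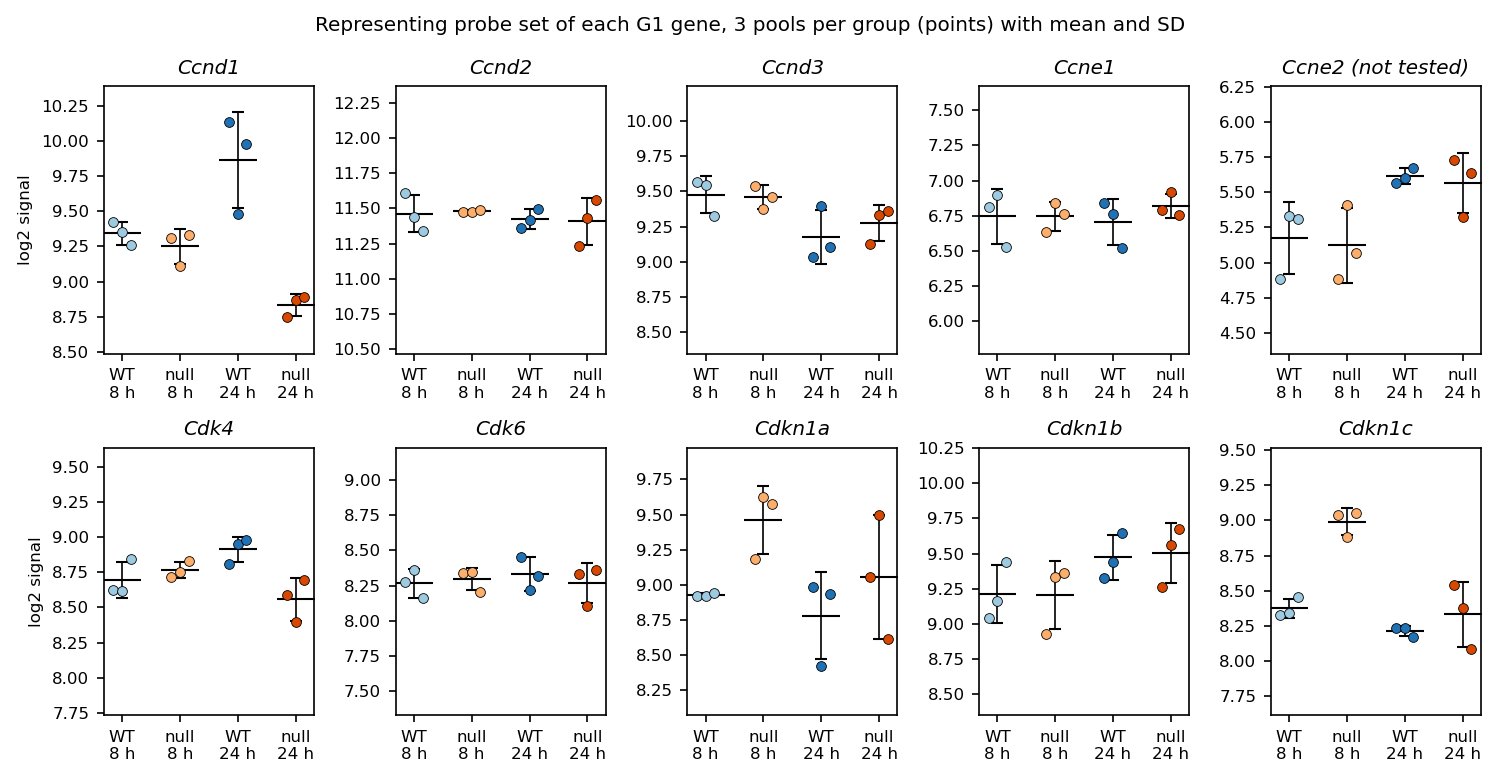
Log2 signal of the representing probe set of each of the 10 genes in the 4 groups, with 3 pools per group as points and the mean and SD as bars; each panel is centred on its gene and all cover an equal width of log2 signal. Ccnd1 separates the genotypes at 24 h and Cdkn1c at 8 h, and the Ccne2 probe set lies below the array medians.

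The kinases were measured by 3 probe sets for Cdk4 and 3 for Cdk6, of which 2 were tested. Cdk4, a catalytic partner of the D-type cyclins, measured 8.81, 8.95 and 8.98 in wild type pools and 8.59, 8.39 and 8.69 in null pools at 24 h (1422441_x_at). All wild type pools lay above all null pools in each of its 3 probe sets. The differences were 1.28-fold (SE 0.10), 1.30-fold (1422439_a_at, SE 0.10) and 1.24-fold (1422440_at, SE 0.10), and none was called (adjusted p 0.11 to 0.17). Groups that did not overlap at 24 h were found for 15.3% of all tested probe sets, and for 8 of the 24 here, the 3 of Ccnd1, the 3 of Cdk4 and 1 each of Ccnd2 and Ccnd3.

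With array weights all 3 were called (adjusted p 0.031 to 0.047), and 1422439_a_at also without null pool 3 at 24 h (0.047). Array weights called 685 probe sets at 24 h in place of 262, and 4017 at 8 h in place of 729. At 8 h Cdk4 (1422441_x_at) measured 8.63, 8.62 and 8.84 in wild type and 8.72, 8.75 and 8.83 in null pools, and the groups overlapped (difference -0.07, 95% interval -0.28 to 0.14). By 1422440_at it was 1.13-fold lower in wild type at 8 h (adjusted p = 0.41; 0.038 with array weights). With the epithelial mean subtracted, the Cdk4 difference at 24 h changed sign, to -0.38 (exact two-sided permutation p = 0.30), and the groups overlapped. Cdk6, the other kinase partner, ranged from 8.11 to 8.46 over all 12 arrays (1455287_at). Its genotype difference was -0.03 (95% interval -0.24 to 0.18) at 8 h and 0.06 (95% interval -0.15 to 0.27) at 24 h.

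The E-type cyclins act with CDK2 at entry to S phase, and neither was called between genotypes. Ccne1 (1441910_x_at) ranged from 6.53 to 6.92 over all arrays, and its genotype difference was 0.0002 (95% interval -0.26 to 0.26) at 8 h and -0.11 (95% interval -0.37 to 0.15) at 24 h. Ccne2 was not tested. Its probe set measured 4.88, 5.33 and 5.31 in wild type and 4.89, 5.41 and 5.07 in null pools at 8 h, and 5.56, 5.60 and 5.68 in wild type and 5.73, 5.32 and 5.64 in null pools at 24 h. The Ccne2 means were 5.17 and 5.12 at 8 h and 5.61 and 5.56 at 24 h, all below the array medians. With no filter on low signals the change with time had an adjusted p of 0.19 in wild type and 0.18 in null glands.

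Among the inhibitors, Cdkn1c was lower in wild type than in null glands at 8 h, and was the 1 member called there of 24 probe sets and of 9 genes. The share over all tested probe sets was 3.07%, and over all tested genes 3.01%. Cdkn1c (1417649_at), which encodes p57, an inhibitor transcribed from the maternal allele, measured 8.32, 8.34 and 8.45 in wild type pools and 9.04, 8.88 and 9.05 in null pools. The pools of each genotype lay close together and the genotypes far apart. The means were 8.37 ± 0.07 (SD, n = 3) and 8.99 ± 0.09, a 1.53-fold higher level in null glands (SE 0.11, adjusted p = 0.0086), called in all 12 fits that left out 1 array (adjusted p 0.0024 to 0.0496).

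At 24 h Cdkn1c measured 8.24, 8.23 and 8.17 in wild type and 8.54, 8.38 and 8.08 in null pools. The groups overlapped and the difference was -0.12 (95% interval -0.35 to 0.11, adjusted p = 0.68). With the epithelial mean subtracted, the difference at 8 h was -0.47 in place of -0.62, and the groups did not overlap (exact permutation p = 0.10, the smallest possible). At 24 h the subtracted difference was -0.86, again with no overlap (exact permutation p = 0.10). The epithelial mean covers markers on both sides, with 6 above 0 and 4 below at 8 h. The luminal keratin genes Krt8 (log2 -0.80, adjusted p = 0.0032) and Krt18 (log2 -0.39, adjusted p = 0.039) were called, both lower in wild type like Cdkn1c. Brown fat markers were also lower in wild type at 8 h, with 3 of 6 called and mean log2 levels of 9.17 to 10.12 in wild type and 10.75 to 11.54 in null pools. In null glands their mean was 11.15 at 8 h and 11.19 at 24 h.

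Cdkn1a, which encodes the p53-induced inhibitor p21, had higher values in null pools at 8 h without being called. Its representing probe set (1424638_at) measured 8.92, 8.92 and 8.95 in wild type and 9.18, 9.63 and 9.57 in null pools. The groups did not overlap, and the difference was 1.45-fold (SE 0.21, adjusted p = 0.24). Probe set 1421679_a_at gave 1.53-fold (SE 0.23, adjusted p = 0.23), also with no overlap. Both were called with array weights (adjusted p = 0.020 and 0.010), a setting that called 4017 probe sets at 8 h in place of 729. Groups that did not overlap at 8 h were found for 24.4% of all tested probe sets and for 7 of the 24 here. The brown fat markers, Krt8 and Krt18 given with Cdkn1c lay the same way as Cdkn1a at 8 h, but 6 of the 10 epithelial markers lay the other way (list median 0.04, log2). The part of these markers in the values of either gene was not tested.

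At 24 h Cdkn1a overlapped, with 8.99, 8.42 and 8.93 in wild type and 9.06, 9.49 and 8.61 in null pools (difference -0.27, 95% interval -0.73 to 0.18). Cdkn1b, which encodes p27, overlapped at both times. It measured 9.04, 9.16 and 9.44 in wild type and 8.93, 9.33 and 9.36 in null pools at 8 h, and 9.33, 9.44 and 9.65 against 9.26, 9.56 and 9.68 at 24 h. The differences were 0.006 (95% interval -0.33 to 0.34) and -0.03 (95% interval -0.36 to 0.30).

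**Figure D3:**
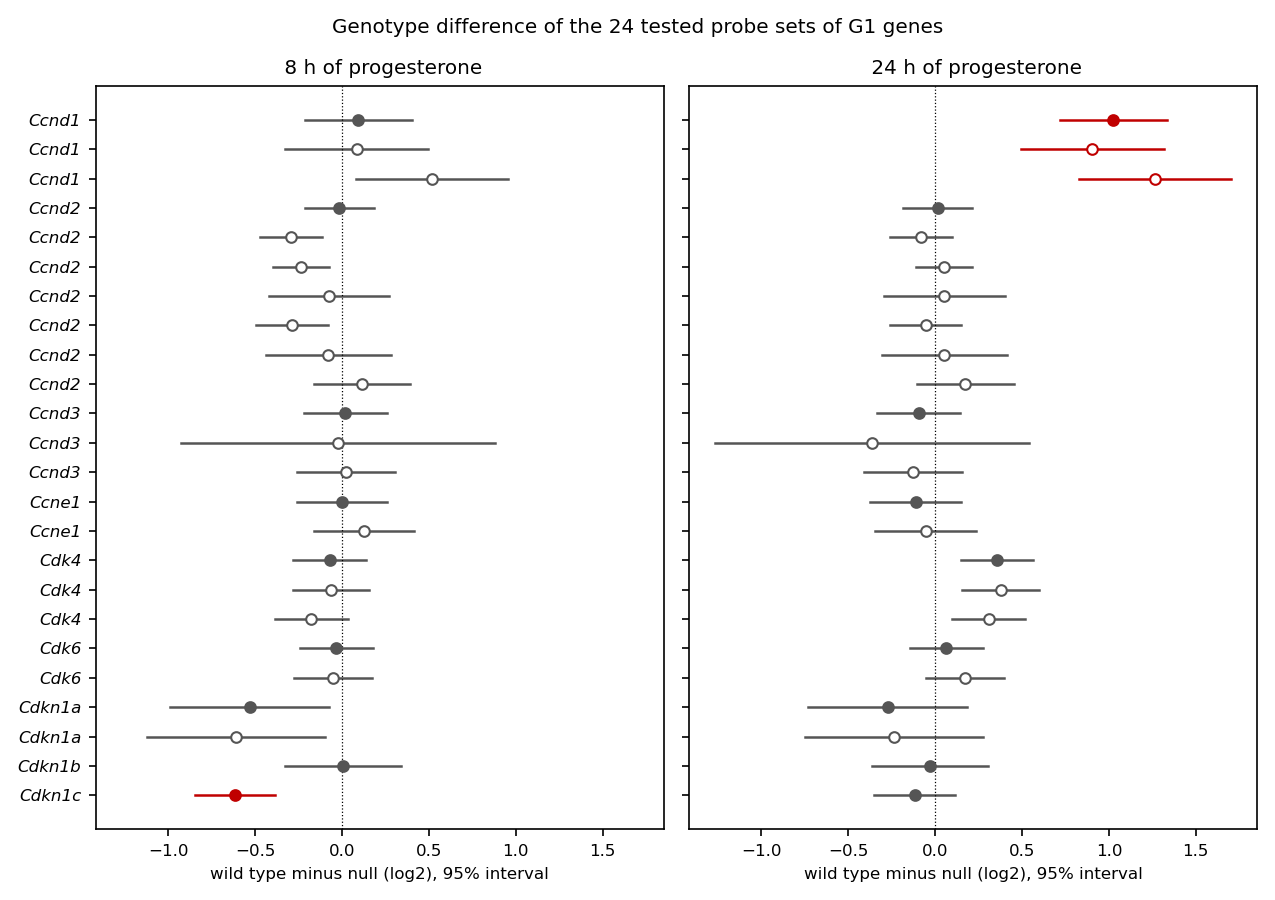
Wild type minus null difference (log2) with its 95% interval for the 24 tested probe sets at 8 h (left) and 24 h (right); filled points are representing probe sets and red marks an adjusted p below 0.05. The 3 Ccnd1 probe sets at 24 h and Cdkn1c at 8 h are called, and the 3 Cdk4 probe sets at 24 h lie between 0.31 and 0.38 without being called.

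Between 8 h and 24 h in null glands, Cdkn1c fell 1.58-fold (log2 -0.66, SE 0.11, adjusted p = 0.0083), and every null pool at 24 h lay below every null pool at 8 h. It was the 1 gene called of 9, where 4.57% of all tested genes were called. The call was kept in all 12 fits that left out 1 array (adjusted p 0.0055 to 0.047) and lost when only the 6 null arrays were fitted (adjusted p = 0.055). In wild type glands Cdkn1c lay 1.12-fold lower at 24 h (adjusted p = 0.42), also with no overlap between the times. With the epithelial mean subtracted, its difference in null glands was -0.15 and the times overlapped (exact permutation p = 0.40). In wild type the subtracted difference was -0.53 and the times did not overlap (exact permutation p = 0.10, the smallest possible). Epithelial markers were lower in null glands at 24 h as well, by a mean of 0.51 (log2) and with 3 of 10 called. Of 6 endothelial markers 5 were lower there (median -0.26), and Pecam1 (1.42-fold, adjusted p = 0.0058) and Kdr (1.22-fold, adjusted p = 0.043) were called. The part of endothelial cells was not tested.

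Probe sets other than the representing one were called over time in null glands for Cdk4 and Ccnd2. Cdk4 by 1422440_at measured 8.11, 8.18 and 8.20 at 8 h and 7.74, 7.55 and 7.79 at 24 h, a fall of 1.38-fold (SE 0.10, adjusted p = 0.022). All null pools at 24 h lay below all at 8 h in each Cdk4 probe set, but 1422439_a_at (1.29-fold lower, adjusted p = 0.059) and 1422441_x_at (1.16-fold lower, adjusted p = 0.24) were not called; the first was called without null pool 3 at 24 h (0.032), and both with array weights (0.0028 and 0.012). Array weights called 5775 probe sets over time in null glands, in place of 1044. Ccnd2 by 1455956_x_at fell 1.28-fold (SE 0.07, adjusted p = 0.023), while the representing probe set differed by -0.07 (95% interval -0.27 to 0.13).

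With Cdkn1c these made 3 calls among 24 probe sets, beside 4.4% of all tested probe sets, and for 12 of the 24 the times did not overlap, beside 26% of all. The call of Cdk4 was lost without null pool 2 or 3 at 8 h or null pool 2 at 24 h (adjusted p 0.077 to 0.093), and when only the null arrays were fitted (0.058). That of Ccnd2 was lost without null pool 1 or 3 at 8 h or any null pool at 24 h (adjusted p 0.051 to 0.097), after quantile normalization (0.090) and with only the null arrays (0.073). With the replicate block, Cdkn1b was also called, 1.23-fold higher at 24 h (adjusted p = 0.044 against 0.30 without the block). So was Cdk4 by 1422439_a_at (adjusted p = 0.029). That block gave each pool number 1 effect shared by all 12 arrays, so these 2 calls do not rest on pairs of null pools alone. A block within each genotype called 2 member genes over time in null glands.

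In wild type glands 0 of 24 probe sets passed the limma test over time, where 5.22% of all tested probe sets and 5.28% of all tested genes were called. At an unadjusted p below 0.05 there were 4, and for 3 the times did not overlap (25.9% over all tested probe sets). Ccnd1 lay 1.43-fold higher at 24 h (SE 0.14, adjusted p = 0.056), with all 3 pools at 24 h above all 3 at 8 h. It was called after quantile normalization (adjusted p = 0.047), with array weights (0.022), with the replicate block (0.041) and without wild type pool 2 at 24 h (log2 difference 0.71, adjusted p = 0.0065). Deviations of same-numbered pools correlated with r = 0.453, -0.013 and 0.0235 in this comparison, so the pool numbers were not taken as pairs here. A block within each genotype called 0 member genes over time in wild type. In null glands Ccnd1 lay 1.33-fold lower at 24 h (SE 0.14, adjusted p = 0.12), again with no overlap between the times, and was called with array weights (0.023) and without wild type pool 2 at 24 h (0.025). Array weights called 1781 probe sets over time in wild type, in place of 1238, and 5775 in null glands, in place of 1044.

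**Figure D4:**
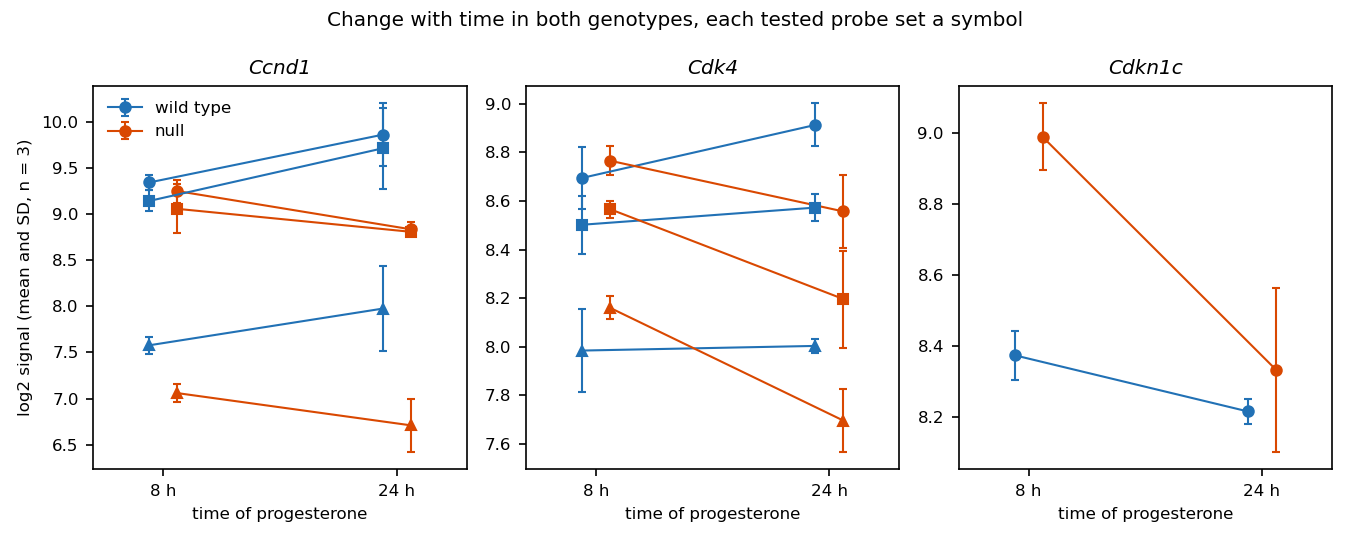
Mean log2 signal with SD (n = 3 pools) at 8 h and 24 h in wild type (blue) and null (orange) glands for the tested probe sets of Ccnd1, Cdk4 and Cdkn1c, each probe set with its own symbol. Ccnd1 means lie higher at 24 h in wild type and lower in null glands in all 3 probe sets, and Cdkn1c starts higher in null glands at 8 h.

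The genotype difference of Ccnd1 was 0.09 at 8 h and 1.03 at 24 h, a change of 0.93 (log2, SE 0.20, 95% interval 0.50 to 1.37). It did not pass the test of the difference itself (adjusted p = 0.16), and the other Ccnd1 probe sets gave 0.82 (adjusted p = 0.51) and 0.75 (adjusted p = 0.70). Without wild type pool 2 at 24 h the change was 1.12 and was called (adjusted p = 0.0090). It was also called with array weights (adjusted p = 0.030), which called 169 probe sets here in place of 34. For Cdkn1c the change was 0.50 (SE 0.15, adjusted p = 0.45), so a difference called at 8 h and not at 24 h is not shown to have changed. For the 3 Cdk4 probe sets the change was 0.43, 0.44 and 0.48 and was not called (adjusted p 0.37 to 0.51), except for 1422440_at with array weights (0.034). limma called 0 of the 24 probe sets and 0 of the 9 genes here, beside 0.143% of all tested probe sets and 0.133% of all tested genes called. At an unadjusted p below 0.05 there were 8 probe sets, those of Ccnd1, Cdk4 and Cdkn1c and 1455956_x_at of Ccnd2. The share of all tested probe sets below that unadjusted threshold is not given here.

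Other genes of the pathway were taken from 5 lists. Of 3 tested INK4 inhibitors (Cdkn2b, Cdkn2c and Cdkn2d), limma called 0 in either genotype comparison, with 1 at an unadjusted p below 0.05 in each. Cdkn2b lay 1.42-fold higher in wild type at 24 h (adjusted p = 0.25). Of 12 tested RB and E2F family genes, 0 were called in either genotype comparison, with 1 at an unadjusted p below 0.05 at 8 h and 2 at 24 h. Rb1, which encodes the retinoblastoma protein, lay 1.26-fold lower in wild type at 8 h (adjusted p = 0.058) and 1.24-fold lower at 24 h (adjusted p = 0.12).

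Of 12 genes for the activation and turnover of G1 kinases and their partners, 0 were called in either genotype comparison, with 3 at an unadjusted p below 0.05 in each. Cks1b, a small partner of the ubiquitin ligase that marks p27 for destruction, lay 1.36-fold higher in wild type at 8 h (adjusted p = 0.066), and Skp2, the substrate receptor of that ligase, 1.35-fold higher at 24 h (adjusted p = 0.32). The list medians at 8 h and 24 h were 0.31 and 0.19 (log2) for INK4 inhibitors, 0.02 and -0.02 for the RB and E2F family and -0.04 and 0.04 for activation and turnover, beside 0.01 and 0.01 over all tested genes.

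S phase genes that E2F factors drive had a median of 0.40 (log2) in favour of wild type at 24 h, with 13 of 14 above 0, though limma called 0 of 14 and 4 had an unadjusted p below 0.05. Mcm7, a subunit of the replicative helicase, lay 1.37-fold higher (adjusted p = 0.094), the thymidine kinase gene Tk1 1.46-fold (adjusted p = 0.24) and the proliferation marker Mki67 1.31-fold (adjusted p = 0.70). At 8 h the median was 0.07, with 9 of 14 above 0. Without null pool 1 at 24 h the median at 24 h was 0.095, and 1 gene was called without wild type pool 2 or null pool 3 at 24 h or with array weights. Over time in wild type glands 14 of 14 lay higher at 24 h (median 0.44), and Mcm7 was called (1.51-fold, SE 0.11, adjusted p = 0.017), a call lost without wild type pool 1 or 2 at 8 h or pool 3 at 24 h (adjusted p 0.052 to 0.071). In null glands 12 of 14 lay higher at 24 h (median 0.099) and limma called 0 (0 at an unadjusted p below 0.05). Over time in wild type 10 of 10 epithelial markers (median 0.32, 2 called), 7 of 7 lymphocyte markers (median 0.94, 0 called) and 6 of 6 brown fat markers (median 0.92, 0 called) also lay higher at 24 h, and their part in the S phase values was not tested.

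Of 13 other p53 target genes, Plk2, a kinase gene of the polo family, was called at 8 h. Plk2 levels in wild type were 1.75-fold those of null glands (SE 0.12, adjusted p = 0.0031). Of the 13, 6 lay higher and 7 lower in wild type, and 4 had an unadjusted p below 0.05. Fas (log2 -0.58, adjusted p = 0.18) and Sesn2 (log2 -0.47, adjusted p = 0.21) lay the same way as Cdkn1a, and Plk2 the other way. The list's median was -0.05 at 8 h and 0.04 at 24 h, and 0 of 13 were called at 24 h, with 2 at an unadjusted p below 0.05. Perp, an adhesion gene that epithelia also express, lay 4.59-fold higher in wild type at 24 h (adjusted p = 0.053).

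Among RB and E2F family genes the DP partners of E2F were called over time. Tfdp2 was 1.35-fold higher at 24 h in wild type (SE 0.09, adjusted p = 0.020) and 1.27-fold higher in null glands (SE 0.09, adjusted p = 0.049), and Tfdp1 was 1.25-fold lower at 24 h in null glands (SE 0.08, adjusted p = 0.049). Skp1, a scaffold subunit of ubiquitin ligases, was 1.18-fold higher at 24 h in wild type (SE 0.06, adjusted p = 0.037). Of the 12 fits that left out 1 array, Tfdp2 lost its call in 5 for wild type (adjusted p 0.052 to 0.083) and in 10 for null glands (0.053 to 0.17), Tfdp1 in 10 (0.052 to 0.16) and Skp1 in 9 (0.054 to 0.16). With only the 2 groups compared all 4 calls were lost (adjusted p 0.073 to 0.12). Both null calls and that of Skp1 were also lost with no filter (0.070 to 0.074) and a constant prior (0.058 to 0.072), Skp1 and Tfdp2 in null glands with arrays centred on their medians (0.0665 and 0.0663), and Tfdp1 after quantile normalization (0.086).

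**Figure D5:**
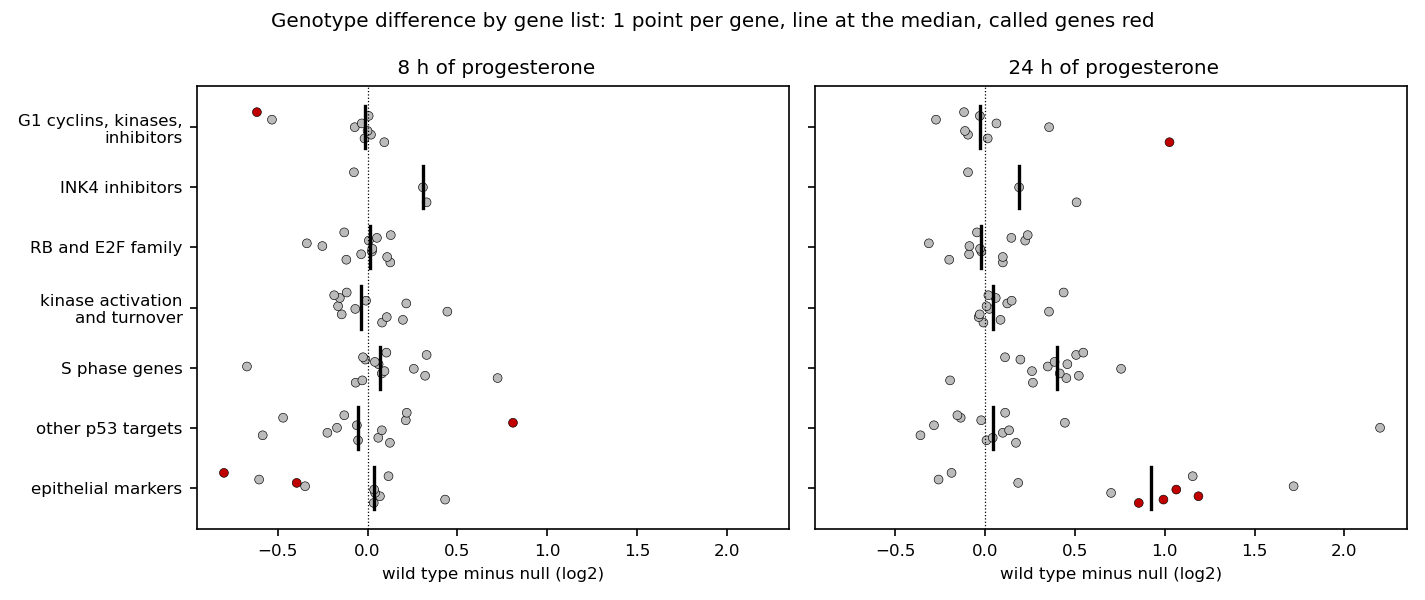
Wild type minus null difference (log2) at 8 h (left) and 24 h (right) for the tested genes of 7 lists, 1 point per gene, with a line at each list's median and called genes in red. S phase genes lie mostly above 0 at 24 h (median 0.40) with none called, and epithelial markers have a median of 0.92 there.

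Finally, genes with the pattern most like the 2 called members were named by the root mean square difference of centred log2 values over the 12 arrays, among 12004 genes. For Ccnd1 (SD 0.41 over the 12 arrays) they were Sox4, a transcription factor gene (0.15), the epithelial cadherin gene Cdh1 (0.17) and Fxyd3, which encodes a regulator of ion transport (0.17). Sox4 means were 10.90 and 10.74 in wild type and null glands at 8 h, and 11.37 and 10.22 at 24 h. For Cdkn1c (SD 0.33) they were the growth factor gene Pdgfb (0.13), Dusp18 (0.15) and Echdc1 (0.15). Pdgfb means were 8.00 and 8.39 in wild type and null glands at 8 h, and 7.85 and 7.90 at 24 h.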

How the data were processed

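Mammary gland RNA was labelled with biotin as cRNA for Affymetrix arrays, per the labels' protocols. The deposited values were taken as log2 from their range (array medians 5.84 to 5.91), since neither scale nor base is stated. The authors had normalized these log2 values between arrays, judged from their nearly equal percentiles. MAS5 appears in the submitters' processing notes without a stated role; how signals were summarized or normalized was not given in the sources used here. Precision is limited by the small number of arrays.

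Gene symbols came from the annotation of the array platform, and Entrez IDs were looked up in a RefSeq table of GRCm38.p6, which changed 0 symbols. Leaving out controls, 34945 of 45037 probe sets had 1 symbol and were named; 932 had several and 9160 none. limma 3.58.1 in R 4.3.3 (lmFit, eBayes with a trended prior) was fitted on 4 group means over 12 arrays and 23709 tested probe sets (12004 genes, 8 residual degrees of freedom). Calls needed a p below 0.05 after Benjamini-Hochberg adjustment over all these probe sets. SE is the moderated standard error (log2), and folds are 2 to the power of the difference. The 5 comparisons share arrays, so their values are given side by side.

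Pools were numbered 1 to 3 in the labels. Deviations of same-numbered arrays from their group means correlated in all 3 pairs for time in null glands (r = 0.52, 0.26 and 0.38, each over 0.1). In the other comparisons at least 1 pair did not. The numbers were therefore taken as pairs only for time in null glands, and only in the replicate block, an alternative fit. The main fit held no block, so values for time in null glands are unpaired unless the block is named. The labels call the pools biological replicates. Muscle marker means were highest in pool 1 and lowest in pool 2 in each of the 4 groups. Pool number thus ordered these markers in wild type too, although the rule on r did not take those numbers as pairs.

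The members and lists were chosen with earlier results of these data known. The text names every member, the called genes of each list (at most 4 per comparison) and the 3 genes most like each called member; Cdkn2b, Rb1, Cks1b, Skp2, Tk1, Mki67, Perp, Fas, Sesn2 and Mcm7 at 24 h were named after their values were seen. Tested on simulated data of 23709 probe sets, the fit recovered 89% of 2-fold and 57% of 1.5-fold changes for genotype at 24 h, and 67% and 12% for the change of the genotype difference with time. The simulated noise was independent between arrays and probe sets, without outlying pools or deviations shared by pools. The shares recovered therefore do not describe such features of the real arrays. Alternatives covered the normalization, filter, floor, prior, array weights, arrays fitted, replicate block, probe set choice and leaving out each array. Figures were drawn with matplotlib 3.10.9.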

Additional observations from a re-analysis of the deposited data

Results flagged for a closer look

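Ccnd1 (1417420_at) was picked out because its difference between the times had opposite directions in the 2 genotypes. All wild type pools at 24 h lay above all wild type pools at 8 h, and all null pools at 24 h below all null pools at 8 h. By the other Ccnd1 probe sets the means moved in the same directions, but the times overlapped in both genotypes. The times did not overlap for 25.9% of all tested probe sets in wild type and for 26% in null glands. By 1417420_at the change with time was 0.933 (log2) larger in wild type, and the limma test of that difference gave an adjusted p of 0.16. Over the 12 fits that left out 1 array it ranged from 0.80 to 1.12 (adjusted p 0.0090 to 0.40) and was called only without wild type pool 2 at 24 h. Epithelial markers differed likewise, with 10 of 10 above 0 for the same difference and 0 called by limma (9 at an unadjusted p below 0.05). Their part in the result was not tested beyond the subtracted values. Groups of 3 arrays are too small for a test of single outlying arrays.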

How the results depend on the processing

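Counts of called probe sets and member genes moved with several choices, and the cause was not tested. With array weights 4017 probe sets (in place of 729) were called for genotype at 8 h, 685 (262) at 24 h, 169 (34) for the change of the genotype difference and 5775 (1044) for time in null glands; member genes were 2, 2, 1 and 3, and 2 for time in wild type. With only the 2 groups compared, 71 were called for genotype at 24 h, 500 (in place of 1238) over time in wild type and 348 over time in null glands, and member genes were 0 for genotype at 24 h and for time in null glands. With 1 probe set per gene, where fewer were tested, 339, 165, 10, 649 and 572 were called in the 5 comparisons, and a stricter filter (6 of 12 arrays) left 21 for the change of the genotype difference. After quantile normalization 1 member gene was called for time in wild type.

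With the replicate block over all arrays, 482 probe sets and 2 member genes were called for genotype at 24 h, 1 member gene for time in wild type, and 1667 probe sets and 2 member genes for time in null glands, the comparison whose numbers pair. A block within each genotype, added after the data were seen, gave 2 member genes there. Leaving out 1 array at a time gave 320 to 889 probe sets for genotype at 8 h, 126 to 704 at 24 h, 12 to 45 for the change of the genotype difference, 239 to 1328 over time in wild type, and 232 to 1202 over time in null glands. Member genes called stayed at 1 for both genotype comparisons and ran from 0 to 1 for the change of the genotype difference and likewise over time in wild type, and from 1 to 2 over time in null glands. The lowest came without wild type pool 1 at 8 h, wild type pool 3 at 24 h, wild type pool 1 at 8 h, wild type pool 1 at 8 h and null pool 3 at 8 h.

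Of 981 refits of the members' 45 differences, 47 changed sign, 0 of them of a called difference, the largest at 0.30 (log2). With the epithelial mean subtracted, 15 of 36 did, 0 of them called.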
